A study of Mus musculus with 22 samples.

Results

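The 40 genes described here carry out mitosis or DNA replication and were chosen by function, 22 for mitosis and 18 for replication, out of 24217 gene symbols in the 2 deposited expression tables. The mitotic genes are Mki67, Top2a, Ccna2, Ccnb1, Ccnb2, Cdk1, Cdc20, Plk1, Aurka, Aurkb, Bub1, Bub1b, Birc5, Kif11, Kif20a, Kif23, Cenpe, Cenpf, Ttk, Nusap1, Tpx2 and Foxm1. The replication genes are Mcm2, Mcm3, Mcm4, Mcm5, Mcm6, Mcm7, Pcna, Rrm1, Rrm2, Tyms, Gins1, Gins2, Cdc45, Cdc6, Cdt1, Pola1, Pole and Rfc4. All 40 were found in the first table. In the second, 39 were found, and Foxm1 was not analysed there.

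The libraries were poly(A) RNA-seq of mouse mammary cells, given as FPKM, fragments scaled to the length of the transcript and the size of the library. Cells of nulliparous C57Bl/6 females were grown in either of 2 media, labelled CRC and EpiC, and some were grafted into mammary glands. The labels do not spell these names out; the series title sets a culture adapted to mammary cells against conditional reprogramming, a method that grows epithelial cells on feeder cells with a ROCK inhibitor. All donors carried MMTV-Cre, in which a mouse mammary tumour virus promoter drives the recombinase mainly in mammary epithelium, and 1 lost allele of Trp53 (Trp53-/+). Added to these were a tetracycline-operated CYP19A1 transgene switched by MMTV-rtTA (here CYP19A1), 1 floxed Brca1 exon 11 allele (Brca1fl 11/WT, here Brca1het) or both (Brca1fl11/fl11, here Brca1hom). The first table held 7 CRC allografts (numbers 1, 2 and 12 Brca1hom; 10B, 10C and 11C Brca1het; 6C CYP19A1), 3 EpiC allografts (4C and 5A Brca1het; 7B CYP19A1), 3 CRC cultures and 3 EpiC cultures. In each set of cultures, number 1 was CYP19A1, number 2 Brca1het and number 3 Brca1hom. The allograft hosts were athymic nude mice, NU (NCr)-Foxn1nu, which lack most T cells but keep other immune and stromal cells. The second table held, for each of 2 Brca1het mammary cancers, a CRC culture, an EpiC culture and the primary cancer itself. Ages of the animals were not found in the labels. No label says whether the libraries of 1 group stem from different animals, and the p-values below therefore cover the variation among libraries, part of which may be technical.

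A dividing cell copies its DNA in S phase and separates the copies in mitosis, and the genes for each step are switched on in turn. Replication genes rise first, under E2F factors that the retinoblastoma protein holds in check. Mitotic genes are held down by the DREAM complex and rise later, under the MuvB complex with B-Myb and FOXM1. CHR and CCAAT promoter elements take part in this control. In mammary tissue the levels of these genes are widely used as a readout of how many cells divide, since resting cells keep both programs low.

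Promoters of the mitotic and of the replication genes differed in the sequence words they held. Of the 40 genes, 31 (17 mitotic and 14 replication) matched a promoter in the RefSeq table of build GRCm38.p6, covering 250 bases before to 50 after the start of the gene. Words were searched on both strands: TTTGAA for the CHR element, CCAAT for the CCAAT box, and, for E2F sites, the word TTCCCGC, the word TTCGCGC, the word TTGCCGC or the word TTGGCGC. The CHR word was present in 70.6% of the mitotic promoters and 14.3% of the replication promoters, against 18.1% of 27025 promoters. An E2F word was present in 17.6% of the mitotic promoters and 71.4% of the replication promoters, against 9.69% of all promoters. CCAAT was common to both, in 88.2% of the mitotic and 71.4% of the replication promoters, against 37.9% of all. An E2F word can overlap a CCAAT box (GCGCCAAT). Without such overlaps the E2F shares were 11.8%, 71.4% and 9.29%. The median GC content was 58.7% in mitotic and 57.5% in replication promoters, against 52.7% in all. A match is a description of the letters and not a bound site, and factor binding was not measured.

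The 250 bases before the start are shown for 8 genes, 5′ to 3′ on the gene's own strand, with matched words in capitals. Cenpf, Ccnb1, Cdt1 and Rrm2 are shown since, of the called genes with a matched promoter, they were the 2 mitotic and 2 replication genes with the largest differences between the cultures (Gins2 had no matched promoter), and Cdc20, Cdk1, Mcm5 and Mcm6 since they hold the words most clearly (these 4 were picked after the word counts were seen). The mitotic ones lie at chr1:189688087-189688336 (minus strand), chr13:100786487-100786736 (minus), chr4:118437344-118437593 (minus) and chr10:69352913-69353162 (minus).
Cenpf: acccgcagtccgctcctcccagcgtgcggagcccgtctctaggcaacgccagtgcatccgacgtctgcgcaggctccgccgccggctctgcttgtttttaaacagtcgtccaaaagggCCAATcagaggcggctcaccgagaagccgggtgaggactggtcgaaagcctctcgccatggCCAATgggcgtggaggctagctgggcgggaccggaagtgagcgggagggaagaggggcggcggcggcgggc
Ccnb1: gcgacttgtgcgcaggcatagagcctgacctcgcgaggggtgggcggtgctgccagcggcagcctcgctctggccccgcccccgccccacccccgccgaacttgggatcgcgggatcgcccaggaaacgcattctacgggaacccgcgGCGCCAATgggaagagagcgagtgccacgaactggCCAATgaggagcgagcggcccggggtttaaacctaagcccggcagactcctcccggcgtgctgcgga
Cdc20: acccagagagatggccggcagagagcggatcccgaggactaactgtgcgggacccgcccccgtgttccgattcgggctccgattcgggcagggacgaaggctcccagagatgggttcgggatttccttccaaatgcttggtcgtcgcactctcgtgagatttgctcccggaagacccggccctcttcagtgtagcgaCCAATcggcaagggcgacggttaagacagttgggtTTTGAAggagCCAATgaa
Cdk1: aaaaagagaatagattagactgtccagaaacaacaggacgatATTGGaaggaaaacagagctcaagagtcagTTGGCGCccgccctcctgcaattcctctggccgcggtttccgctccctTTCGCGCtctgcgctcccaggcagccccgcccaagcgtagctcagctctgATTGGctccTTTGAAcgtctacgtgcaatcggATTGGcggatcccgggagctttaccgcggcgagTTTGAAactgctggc
The replication ones lie at chr8:122567765-122568014 (plus strand), chr12:24708004-24708253 (plus), chr8:75109259-75109508 (plus) and chr1:128359706-128359955 (minus).
Cdt1: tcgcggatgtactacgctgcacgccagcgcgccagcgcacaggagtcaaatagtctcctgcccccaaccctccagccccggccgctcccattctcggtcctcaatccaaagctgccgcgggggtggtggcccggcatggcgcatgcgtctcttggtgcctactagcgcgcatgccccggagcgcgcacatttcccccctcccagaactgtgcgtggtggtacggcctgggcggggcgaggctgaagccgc
Rrm2: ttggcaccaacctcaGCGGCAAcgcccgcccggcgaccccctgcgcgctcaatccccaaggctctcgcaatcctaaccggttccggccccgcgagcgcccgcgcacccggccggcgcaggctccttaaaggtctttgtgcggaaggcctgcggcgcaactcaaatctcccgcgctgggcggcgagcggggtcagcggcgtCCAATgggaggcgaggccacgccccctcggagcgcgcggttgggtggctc
Mcm5: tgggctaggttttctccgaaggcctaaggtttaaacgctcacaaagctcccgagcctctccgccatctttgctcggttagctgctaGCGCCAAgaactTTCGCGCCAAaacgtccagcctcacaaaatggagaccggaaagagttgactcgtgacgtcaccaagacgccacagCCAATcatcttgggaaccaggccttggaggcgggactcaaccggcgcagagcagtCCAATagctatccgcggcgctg
Mcm6: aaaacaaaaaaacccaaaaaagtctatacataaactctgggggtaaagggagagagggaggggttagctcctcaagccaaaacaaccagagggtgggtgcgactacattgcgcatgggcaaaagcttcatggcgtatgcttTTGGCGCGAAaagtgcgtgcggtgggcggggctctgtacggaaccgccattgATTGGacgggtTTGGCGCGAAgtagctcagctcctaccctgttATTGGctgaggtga
In Cdc20, TTTGAA stands at -18 to -13 from the start, between 2 CCAAT boxes. Cdk1, whose product is the kinase that starts mitosis, holds both kinds of word, with TTTGAA at -71 to -66 and -15 to -10 and E2F words at -178 to -172 and -130 to -124. In Mcm6 the run TTGGCGCGAA occurs at 2 places, each read as an E2F word on either strand. Cdt1 has no matched word in the 250 bases; its 2 E2F words lie in the 50 bases after the start, as does the CHR word of Cenpf.

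Before the comparisons, the libraries themselves differed in ways that touch these genes. Summed FPKM of 8 epithelial markers ran from 9754 to 15342 in CRC cultures and from 4.21 to 1682 in EpiC cultures, where the lowest was EpiC culture 3, with Krt8 at 0.275 and Epcam at 0.208 FPKM, so that the epithelial label was not borne out by its markers there. Summed FPKM of 9 fibroblast markers ran from 45.8 to 69.7 in CRC cultures and from 3404 to 6436 in EpiC cultures. In allografts, 11 macrophage markers summed to 4612 to 14841 (CRC) and 5091 to 14957 (EpiC), and epithelial markers to 43.8 to 587 (CRC) and 200 to 895 (EpiC). In several libraries the level of a gene also depended on its transcript length: Spearman's rho across genes between length and the deviation from the group was -0.52 in EpiC allograft 5A, 0.38 in EpiC allograft 4C, 0.37 in EpiC allograft 7B, 0.31 in CRC allograft 1, and between -0.11 and 0.13 in the 6 cultures of the first table. In the small groups of EpiC allografts and cultures the deviations of a gene cancel out, so the signs are partly fixed in advance. In the second table, where each group has 2 libraries and their deviations mirror each other, rho was 0.55 and -0.55 in CRC cancer cultures 1 and 2, 0.32 and -0.32 in EpiC cancer cultures 1 and 2, and -0.13 and 0.13 in primary cancers 1 and 2, which does not show which library of a pair carries the trend. The number of reads behind a value is not in FPKM, so the precision from counting is unknown, and a change in the share of dividing cells cannot be told apart from a change in RNA per cell. Exons of 11 of the 40 genes overlap another gene, 10 of them on the opposite strand (among them Ccna2, Cdc20, Gins2, Kif20a, Mcm7 and Plk1) and Foxm1 on its own strand, and 4 (Ccnb1, Ccnb2, Pcna and Tyms) have a pseudogene that could share reads. Use of strand in the counting is not given in the sources used here, so the levels of these genes are uncertain to that extent.

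All 40 genes were at 1 FPKM or more in all 16 libraries of the first table, and together they made up a small and similar share of the summed FPKM, 0.224% ± 0.0185 in CRC allografts (SD, n = 7), 0.204% ± 0.0608 in EpiC allografts (n = 3), 0.213% ± 0.0565 in CRC cultures (n = 3) and 0.179% ± 0.0297 in EpiC cultures (n = 3). Ranks between genes on the FPKM scale carry the limits of transcript length and shared reads given above. Birc5, whose product survivin guides chromosome segregation, had the highest mean FPKM in CRC allografts (150 ± 40.6) and EpiC allografts (175 ± 68.9). Pcna, the sliding clamp of DNA polymerases, had the highest mean in CRC cultures (111 ± 52.96) and EpiC cultures (97.0 ± 11.6). The lowest means were those of Cenpf, a kinetochore protein, in CRC allografts (4.43 ± 1.01), EpiC allografts (4.86 ± 3.21) and EpiC cultures (2.67 ± 0.672), and of the origin-licensing factor Cdc6 in CRC cultures (3.34 ± 1.21).

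**Figure D1:**
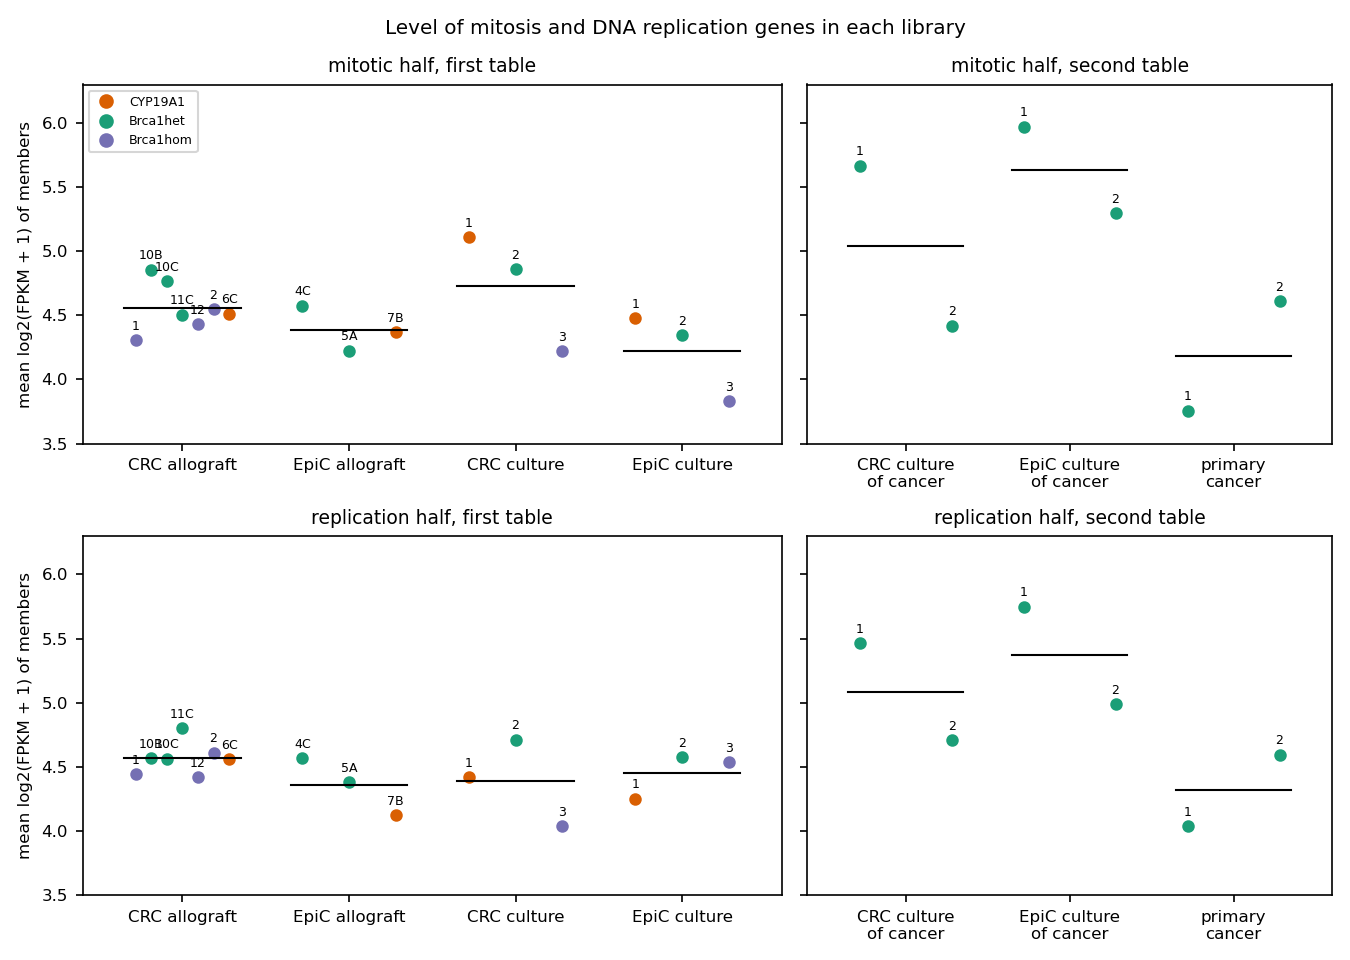
Mean log2(FPKM + 1) of the mitotic genes (top) and replication genes (bottom) in each library of the first table (left) and the second table (right). Points are libraries coloured by genotype and named by their number, lines are group means, and tables were normalised separately. In the first table the mitotic mean ran from 3.83 in EpiC culture 3 to 5.11 in CRC culture 1, and in the second from 3.76 in primary cancer 1 to 5.97 in EpiC cancer culture 1.

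Mitotic genes mostly stood higher in CRC cultures than in EpiC cultures. Replication genes split in both directions, with a median and counts of calls near those of all genes. Of the 22 mitotic genes, 6 rose in CRC cultures (Mki67, Ccnb1, Aurka, Bub1, Cenpe and Cenpf) and 0 fell, where 11.4% of the 11837 genes tested rose and 11.7% fell (limma on log2(FPKM + 1) with genotype in the model, Benjamini-Hochberg adjusted p under 0.05). Of the 18 replication genes, 2 rose and 3 fell, against 23.2% of all genes called in either direction. The median difference was 0.51 on the log2(FPKM + 1) scale over the mitotic genes and 0.04 over the replication genes, against 0.04 over all genes tested. The groups did not overlap for 6 mitotic genes, all higher in CRC cultures, and for 4 replication genes, 2 higher and 2 lower. Over all genes, 26.7% were higher and 23.7% lower without overlap. The share of mitotic genes that were higher without overlap was thus near that of all genes. Within genotypes, 17 of 22 mitotic genes (77.3%) were higher in the CRC culture in each of the 3 pairs, against 34.3% of all genes. The 5 exceptions were Cdc20, Aurkb, Bub1b, Tpx2 and Foxm1.

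Cenpf had 10.1, 7.02 and 4.10 FPKM in CRC cultures 1, 2 and 3, against 3.21, 2.88 and 1.92 FPKM in EpiC cultures 1, 2 and 3. All CRC cultures stood above all EpiC cultures, and the log2 difference was 1.08 ± 0.20 (SE; limma adjusted p = 0.0303). Ccnb1, the cyclin that activates Cdk1 at the entry to mitosis, had 57.6, 56.0 and 39.9 FPKM in CRC cultures and 29.6, 27.5 and 20.4 FPKM in EpiC cultures, also without overlap (log2 difference 0.96 ± 0.15, limma adjusted p = 0.0209). Cenpe, a kinetochore motor that aligns chromosomes, had 10.6, 10.1 and 6.52 FPKM in CRC cultures and 5.79, 4.88 and 2.70 FPKM in EpiC cultures (log2 difference 0.90 ± 0.17, limma adjusted p = 0.0288). Within each medium the Brca1hom culture was the lowest of the 3 for these genes. Bub1, a spindle checkpoint kinase, had 21.1, 16.5 and 10.3 FPKM in CRC cultures, against 9.84, 9.80 and 5.78 FPKM in EpiC cultures (log2 difference 0.82 ± 0.16, limma adjusted p = 0.0347). Mki67, the proliferation marker Ki-67 that coats mitotic chromosomes, had 21.004, 17.5 and 12.2 FPKM in CRC cultures, against 11.7, 10.04 and 7.41 FPKM in EpiC cultures (log2 difference 0.73 ± 0.15, limma adjusted p = 0.0369). The lowest CRC culture was just above the highest EpiC culture for both. Top2a, a topoisomerase that untangles sister DNA, did not pass, with 123, 83.9 and 64.8 FPKM in CRC cultures and 66.4, 69.6 and 36.0 FPKM in EpiC cultures (log2 difference 0.66 ± 0.20, limma adjusted p = 0.0740). Cdk1 had 68.1, 72.2 and 45.6 FPKM in CRC cultures and 45.2, 55.2 and 36.8 FPKM in EpiC cultures (0.42 ± 0.15, limma adjusted p = 0.114), and here the Brca1hom CRC culture lay among the EpiC cultures.

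The replication genes that rose were both subunits of ribonucleotide reductase, which makes the deoxynucleotides for DNA synthesis. Rrm2 had 51.0, 96.6 and 43.3 FPKM in CRC cultures 1, 2 and 3 and 20.1, 34.0 and 23.1 FPKM in EpiC cultures 1, 2 and 3 (log2 difference 1.22 ± 0.19, limma adjusted p = 0.0209). Rrm1 had 98.0, 106 and 65.9 FPKM in CRC cultures and 33.1, 49.9 and 37.1 FPKM in EpiC cultures (1.14 ± 0.20, limma adjusted p = 0.0266). Neither overlapped between the media. Those that fell were Cdt1, which loads the replicative helicase at origins, Gins2, a part of the active helicase, and Tyms, the thymidylate synthase. Cdt1 had 10.3, 7.45 and 6.25 FPKM in CRC cultures and 22.7, 20.0 and 19.7 FPKM in EpiC cultures (-1.29 ± 0.17, limma adjusted p = 0.0163). Gins2 had 18.4, 16.4 and 12.4 FPKM in CRC cultures and 31.3, 36.0 and 49.7 FPKM in EpiC cultures (-1.25 ± 0.28, limma adjusted p = 0.0415). Both were lower in every CRC culture, and Gins2 ran in opposite genotype orders in the 2 media. Tyms had 9.27, 15.8 and 8.41 FPKM in CRC cultures and 15.4, 27.4 and 19.5 FPKM in EpiC cultures, which overlapped (-0.85 ± 0.17, limma adjusted p = 0.0357). The helicase subunits Mcm2 to Mcm7 differed by -0.56 to 0.15 on the log2 scale and none passed. For Mcm2, values were 18.2, 27.6 and 15.3 FPKM in CRC cultures and 17.0, 18.6 and 32.6 FPKM in EpiC cultures. For Mcm5, they were 17.0, 26.3 and 15.6 FPKM in CRC cultures and 21.1, 31.3 and 35.8 FPKM in EpiC cultures. Pcna had 93.6, 171 and 69.4 FPKM in CRC cultures and 96.8, 109 and 85.4 FPKM in EpiC cultures, with no order between the media.

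The replication genes depended on the genotype pair. Their mean log2 difference between CRC and EpiC culture was 0.17 in the CYP19A1 pair, 0.14 in the Brca1het pair and -0.50 in the Brca1hom pair, where 2 of 18 genes were higher in the CRC culture. For the mitotic genes the same means were 0.63, 0.51 and 0.39. With 1 pair for each genotype, a difference between genotypes was not tested. The mitotic mean minus the replication mean was 0.69 in CRC culture 1 (5.11 and 4.42 on the log2(FPKM + 1) scale) and -0.71 in EpiC culture 3 (3.83 and 4.54), the highest and lowest of the 16 libraries.

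Lists of other cell cycle genes outside the 40 are read here against 11.4% of all genes that rose and 11.7% that fell. Of 15 E2F, DREAM and B-Myb regulators, 2 rose and 1 fell in CRC cultures. The one that fell was E2f1, an activator of replication genes, at 3.23 ± 1.54 FPKM in CRC cultures and 13.9 ± 1.81 FPKM in EpiC cultures (SD, n = 3 each; log2 difference -1.86, limma adjusted p = 0.0124). Rb1, the retinoblastoma protein that restrains E2F, rose, at 14.3 ± 4.79 FPKM in CRC cultures and 4.87 ± 2.15 FPKM in EpiC cultures (1.41, limma adjusted p = 0.0361). Of 17 kinetochore and checkpoint genes, 2 rose, Bub3 by 0.80 and Nuf2 by 0.78, and 0 fell. Of 19 spindle, chromosome and cytokinesis genes, 5 rose and 0 fell, among them Ect2, which directs the cleavage furrow, by 1.07, and Aspm, a spindle pole protein, by 0.94. None of 28 origin and fork genes and none of 10 nucleotide supply genes passed in either direction, with medians of 0.03 and -0.25.

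Leaving out any 1 of the 6 cultures, which leaves 1 residual degree of freedom, left 0 to 2 mitotic and 0 to 3 replication genes past the threshold, with mitotic medians of 0.49 to 0.59, and without EpiC culture 3, the library without epithelial markers, 2 mitotic genes (Cenpf and Ccnb1) and 3 replication genes (Cdt1, Rrm2 and Rrm1) passed. With no filter on low values 1 mitotic and 3 replication genes passed. The sum of the epithelial markers was higher and the fibroblast markers were lower in every CRC culture than in every EpiC culture. Single epithelial markers could overlap, as Epcam did (253 to 266 FPKM in CRC cultures, 0.208 to 454 FPKM in EpiC cultures). Krt5 did not overlap (4450 to 5457 FPKM in CRC cultures, 1.002 to 2.32 FPKM in EpiC cultures). The part of these markers in the differences was not tested.

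**Figure D2:**
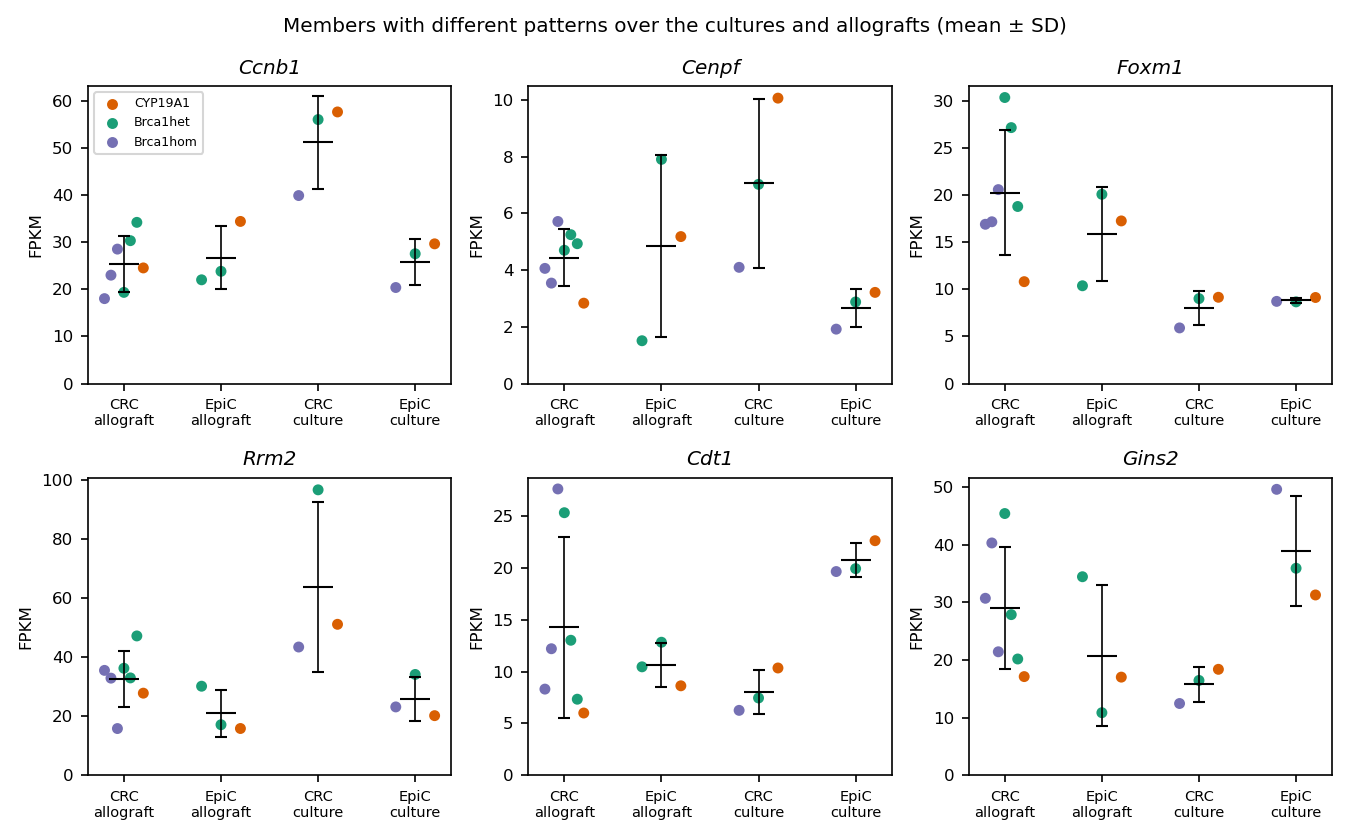
FPKM of 6 genes in the 4 groups of the first table; points are libraries coloured by genotype, and the line and bar give the mean and SD. Mean levels of Ccnb1, Cenpf and Rrm2 were highest and those of Cdt1 and Gins2 lowest in CRC cultures, and all 7 CRC allografts exceeded all 3 CRC cultures for Foxm1.

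In allografts the same media comparison gave no called gene among the 40, where 1 of 11999 genes passed (0.00833%). The unadjusted p was under 0.05 for 2 mitotic and 3 replication genes, all higher in CRC allografts, where 4.53% of all genes were higher and 3.90% lower at that level. Medians were 0.18 over the mitotic and 0.22 over the replication genes, against 0.02 over all. The smallest adjusted p among mitotic genes was that of Plk1, a kinase that drives centrosome maturation and mitotic exit, with a lowest, median and highest value of 12.6, 18.7 and 25.9 FPKM in CRC allografts, against 7.05 (4C), 7.37 (5A) and 13.0 (7B) FPKM in EpiC allografts (log2 difference 1.01 ± 0.31, limma adjusted p = 0.427). Next was Kif11, the kinesin that pushes spindle poles apart, with 8.41, 11.0 and 19.8 FPKM in CRC allografts and 11.2, 4.70 and 8.72 FPKM in EpiC allografts 4C, 5A and 7B (0.83 ± 0.30, limma adjusted p = 0.527; 0.42 without EpiC allograft 5A). The groups overlapped for both, as for all 40 genes, where 0.892% of all genes were higher and 1.48% lower without overlap. Among replication genes, Rrm1 averaged 49.7 ± 7.63 FPKM in CRC allografts and 34.7 ± 9.44 FPKM in EpiC allografts (0.70 ± 0.21, limma adjusted p = 0.426), and Mcm7 averaged 68.8 ± 8.72 FPKM in CRC allografts and 51.2 ± 5.596 FPKM in EpiC allografts (0.52 ± 0.22, limma adjusted p = 0.560). Relative to the rest of their group, the 3 EpiC allografts had the strongest length dependence of the first table. Allograft 5A lay toward short and 4C and 7B toward long transcripts. Deviations from the rest of so small a group cancel out within it, so opposite signs are partly fixed in advance. They do not show which library carries the trend. None of the 40 genes passed in any alternative setting or with any library left out.

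**Figure D3:**
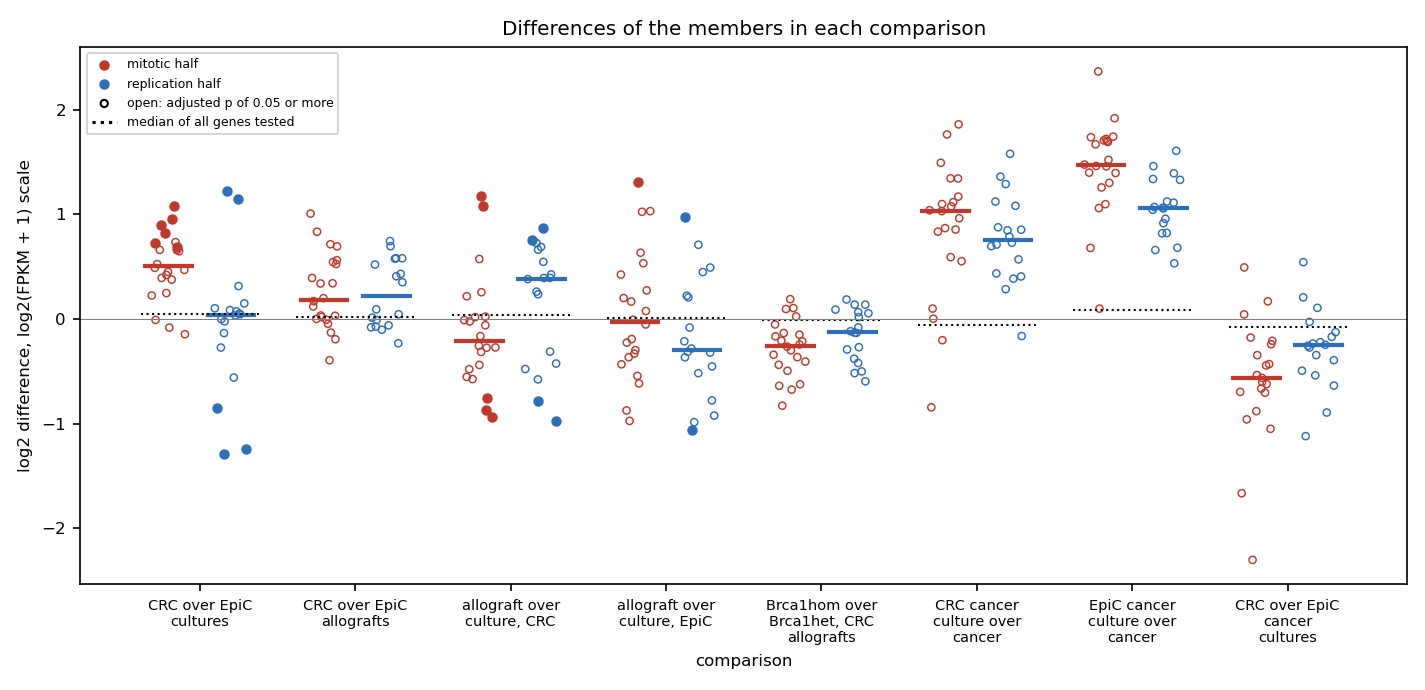
Log2 differences of the single genes (points) in 8 comparisons, mitotic genes in red and replication genes in blue; filled points had an adjusted p under 0.05, bars are the medians and dotted lines the median of all genes tested. Medians of the mitotic genes ran from -0.56 (CRC over EpiC cultures of cancers) to 1.48 (EpiC cultures of cancers over the cancers).

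Between CRC allografts and CRC cultures the 40 genes moved in both directions. Of the mitotic genes 2 rose in allografts (Foxm1 and Birc5) and 3 fell (Ccnb1, Cdk1 and Bub1). Of the replication genes 2 rose (Mcm5 and Mcm6) and 2 fell (Rrm1 and Rrm2). Among all 12325 genes 39.6% were called, 21.2% higher and 18.4% lower, so that the shares of the mitotic and replication genes were below that background. Median differences were -0.21 (mitotic) and 0.39 (replication), against 0.04 over all. All CRC allografts were above all CRC cultures for 1 mitotic and 2 replication genes, and below them for 1 mitotic and 1 replication gene. The share of all genes without overlap is not given for this comparison, so such separation is not read as a trait of these genes. Leaving out 1 library gave mitotic medians of -0.35 (without CRC culture 3) to -0.04 (without CRC allograft 6C) and replication medians of 0.18 (without CRC culture 3) to 0.44 (without CRC culture 2). This comparison and that of the cultures share the 3 CRC cultures, so that Ccnb1, Bub1, Rrm1 and Rrm2, higher there, are set here against the same libraries.

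Foxm1, a transcription factor that drives mitotic genes, had a lowest, median and highest value of 10.8, 18.8 and 30.3 FPKM in CRC allografts, against 9.14, 9.002 and 5.89 FPKM in CRC cultures 1, 2 and 3. Every allograft exceeded every culture (log2 difference 1.18 ± 0.28, limma adjusted p = 0.00432). Birc5 had 65.8, 164 and 180 FPKM in CRC allografts and 86.8, 82.2 and 44.5 FPKM in CRC cultures, overlapping only through CRC allograft 1 (1.08 ± 0.32, limma adjusted p = 0.0168). Ccnb1 had 18.01, 24.5 and 34.2 FPKM in CRC allografts, all below the CRC cultures given above (-0.94 ± 0.22, limma adjusted p = 0.00375). Cdk1 had 17.3, 36.3 and 53.5 FPKM in CRC allografts, which overlapped the cultures (-0.76 ± 0.24, limma adjusted p = 0.0205). Bub1 had 3.43, 8.15 and 11.99 FPKM in CRC allografts, which also overlapped (-0.87 ± 0.31, limma adjusted p = 0.0369). Mki67 had 14.5, 17.6 and 25.9 FPKM and Top2a 43.1, 57.7 and 69.2 FPKM in CRC allografts, and neither passed (log2 differences 0.22 ± 0.31 and -0.57 ± 0.27).

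Among the replication genes, Mcm5 had 27.8, 30.4 and 65.9 FPKM in CRC allografts, all above the highest CRC culture at 26.3 FPKM (log2 difference 0.87 ± 0.31, limma adjusted p = 0.0356). Mcm6 had 48.0, 59.4 and 86.4 FPKM in CRC allografts and 43.2, 48.6 and 25.1 FPKM in CRC cultures 1, 2 and 3 (0.76 ± 0.25, limma adjusted p = 0.0258). Both encode subunits of the helicase that opens DNA at the fork. Rrm1 had 37.8, 50.5 and 61.1 FPKM in CRC allografts, all below the CRC cultures (-0.78 ± 0.20, limma adjusted p = 0.00764), and Rrm2 had 15.7, 32.9 and 47.1 FPKM, which overlapped them (-0.97 ± 0.26, limma adjusted p = 0.00957). Mcm2 (18.3, 28.9 and 45.9 FPKM in CRC allografts; 0.43 ± 0.29) and Pcna (40.4, 69.3 and 98.8 FPKM; -0.58 ± 0.26) did not pass. Among Mcm2 to Mcm7, only Mcm5 and Mcm6 passed, while Mcm2, Mcm3 and Mcm7 were higher and Mcm4 lower (-0.48 ± 0.27) without passing. Both ribonucleotide reductase subunits fell. With CRC culture 3 or CRC culture 1 left out, no replication gene passed as higher. In the lists outside the 40, to be read against 21.2% of all genes higher and 18.4% lower, E2f4 (74.2 ± 14.6 FPKM in CRC allografts, 23.2 ± 2.76 FPKM in CRC cultures) and E2f1 (12.7 ± 4.18 FPKM in CRC allografts, 3.23 ± 1.54 FPKM in CRC cultures) rose among the regulators, where 1 of 15 fell. Racgap1, a cytokinesis regulator, rose (55.9 ± 8.39 FPKM in CRC allografts, 26.5 ± 5.41 FPKM in CRC cultures), and Hmmr, a spindle protein, fell (11.1 ± 3.09 FPKM in CRC allografts, 23.2 ± 9.54 FPKM in CRC cultures), the only ones of 19 spindle genes to pass. Of 17 kinetochore genes 1 rose and 2 fell (Cenpm and Cenpk, with log2 differences of -1.4996 and -0.86). Of 28 origin and fork genes 7 rose and 3 fell, among them Rfc5, a clamp loader subunit, by a log2 difference of 1.28, and Gmnn, whose product geminin blocks Cdt1, at -1.24. Of 10 nucleotide supply genes 2 rose and 1 fell (Shmt1, 0.75; Ctps, -1.13).

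Without CRC culture 3 or CRC culture 2, 2 mitotic and 2 replication genes passed, and the difference of Mcm6 was 0.49 without CRC culture 3; without CRC culture 1 the counts were 3 and 2, and without CRC allograft 1 they were 5 and 6. Of 11 macrophage markers, summing to 4612 to 14841 FPKM in CRC allografts and 45.0 to 67.8 FPKM in CRC cultures, 8 were under 1 FPKM in every CRC culture, and epithelial markers summed lower in every CRC allograft than in every CRC culture. How much of the RNA of these genes in allografts came from host cells was not tested.

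Between EpiC allografts and EpiC cultures, Birc5 was the 1 mitotic gene that rose and 0 fell, while among the replication genes Mcm6 rose and Pcna fell, against 14.2% of 12325 genes called (7.94% higher, 6.26% lower). Birc5 had 162, 249 and 113 FPKM in EpiC allografts 4C, 5A and 7B, and 66.3, 78.6 and 36.1 FPKM in EpiC cultures 1, 2 and 3 (log2 difference 1.31 ± 0.39, limma adjusted p = 0.0392). Mcm6 had 94.2, 50.1 and 83.6 FPKM in EpiC allografts and 40.7, 35.9 and 30.2 FPKM in EpiC cultures (0.98 ± 0.30, limma adjusted p = 0.0427). Pcna had 57.6, 79.2 and 34.5 FPKM in EpiC allografts and 96.8, 109 and 85.4 FPKM in EpiC cultures (-1.06 ± 0.31, limma adjusted p = 0.0385). The groups did not overlap for any of these 3 genes. This was not particular to called genes. Cenpe, Foxm1 and Pole were also higher, and Cdt1 lower, in every EpiC allograft than in every EpiC culture, and did not pass. Thus 3 of 22 mitotic genes were higher without overlap, and of 18 replication genes 2 were higher and 2 lower. The share of all genes without overlap is not given for this comparison, so the separation is not read as a trait of these genes. Cdk1, with 25.3, 39.9 and 22.7 FPKM in EpiC allografts, and Mki67, with 38.2, 11.2 and 23.2 FPKM, lay at log2 differences of -0.88 ± 0.28 (limma adjusted p = 0.0547) and 1.03 ± 0.38 (limma adjusted p = 0.0872). Mki67 overlapped only through EpiC allograft 5A, and Cdk1 also through 5A.

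The other genes given in every library did not pass either. Top2a had 96.5, 53.7 and 66.6 FPKM in EpiC allografts 4C, 5A and 7B, Ccnb1 23.8, 22.0 and 34.4 FPKM, and Rrm2 17.0, 30.1 and 15.7 FPKM. Mcm2 had 22.0, 13.2 and 19.2 FPKM and Mcm5 29.7, 31.0 and 39.6 FPKM. All 5 overlapped the EpiC cultures given above. Medians over the mitotic and replication genes were -0.03 and -0.30, against 0.01 over all. Of the lists, E2f4 rose (77.2 ± 9.29 FPKM in EpiC allografts, 28.9 ± 2.62 FPKM in EpiC cultures), Gmnn fell (22.3 ± 11.5 FPKM in EpiC allografts, 36.4 ± 10.5 FPKM in EpiC cultures) and Ctps fell (29.0 ± 5.75 FPKM in EpiC allografts, 93.3 ± 31.7 FPKM in EpiC cultures), and no other listed gene passed. These counts were unstable: leaving out 1 library gave 0 to 3 mitotic and 0 to 5 replication calls, with 3 and 5 without EpiC allograft 5A, and removing the length trend gave 3 mitotic calls. Macrophage markers summed to 5091 to 14957 FPKM in EpiC allografts and 37.7 to 86.6 FPKM in EpiC cultures, and their part was not tested.

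Whether the change from culture to allograft differed between CRC and EpiC was tested as an interaction over the 16 libraries, and 0 of the 40 genes passed, where 12.2% of 12325 genes did, 6.35% above 0 and 5.87% below. At an unadjusted p under 0.05 there were 1 mitotic gene below 0 and 3 replication genes above 0, where 13.0% and 13.2% of all genes were below and above 0. Gins2 came nearest (CRC change minus EpiC change 1.71 ± 0.55 on the log2 scale, limma adjusted p = 0.0590), with 17.1, 27.9 and 45.5 FPKM (lowest, median, highest) in CRC allografts, 10.8, 34.5 and 17.0 FPKM in EpiC allografts 4C, 5A and 7B, and the culture values given above. Tyms followed (1.12 ± 0.44, limma adjusted p = 0.119). Of the mitotic genes, the nearest were Ccnb1 (-0.89 ± 0.34, limma adjusted p = 0.112) and Top2a (-0.85 ± 0.42, limma adjusted p = 0.220). EpiC allografts 4C and 5A, of the same genotype, were the lowest and the highest of the 3 EpiC allografts for Gins2. It passed in 2 of 7 alternative settings and in 3 of 16 fits that left out a library.

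Among CRC allografts, 3 Brca1hom were compared with 3 Brca1het. No gene of the 40, nor of all 11928 tested, passed (limma; 0%), while 4.73% were higher and 5.72% lower at an unadjusted p under 0.05. Brca1 itself acts at replication forks and in the repair of broken DNA. The difference was negative for 18 of 22 mitotic and 11 of 18 replication genes, with medians of -0.26 and -0.13, against -0.01 over all. All Brca1hom allografts stood below all Brca1het allografts for 2 mitotic genes (Cdc20 and Kif11) and 4 replication genes (Mcm7, Pcna, Rrm1 and Tyms), where 9.93% of all genes did so and 9.43% the reverse. Kif11 had 8.41, 8.73 and 9.08 FPKM in Brca1hom allografts 1, 2 and 12, and 19.8, 15.7 and 13.95 FPKM in Brca1het allografts 10B, 10C and 11C (log2 difference -0.83 ± 0.20, limma adjusted p = 0.311). Cdk1 averaged 28.4 ± 9.87 FPKM in Brca1hom and 44.5 ± 8.68 FPKM in Brca1het allografts (-0.68 ± 0.32, limma adjusted p = 0.4931). Of the replication genes, the smallest p-values were those of Pcna, at 55.8 ± 13.9 FPKM in Brca1hom and 78.4 ± 13.2 FPKM in Brca1het allografts (-0.50 ± 0.26, limma adjusted p = 0.532), and Gins1, at 7.62 ± 3.502 FPKM in Brca1hom and 11.2 ± 1.78 FPKM in Brca1het allografts (-0.60 ± 0.36, limma adjusted p = 0.575). Without CRC allograft 1 (Brca1hom), the differences were -0.19 for Gins1, -0.29 for Pcna and -0.37 for Cdk1. In the lists outside the 40, 0 genes passed. Medians were -0.69 over kinetochore and checkpoint genes, -0.47 over spindle genes and -0.36 over origin and fork genes. They were -0.21 over nucleotide supply genes and -0.08 over E2F, DREAM and B-Myb regulators, against -0.01 over all genes. Across genes the difference correlated with transcript length (Spearman's rho 0.29 over 11175 genes), and the part of length in these values was not tested.

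In the second table the cultures of cancers were set beside the cancers they came from, and here mitotic and replication genes mostly stood higher in culture, although none passed the test in a design of 2 against 2. Bub1 was listed at 0 in CRC cancer culture 2, and since 6 of 3508 genes that were at 10 FPKM or more throughout the first table are at 0 in the second, a 0 may be a missing estimate. Of the 12266 genes tested, 0.889% were called between CRC cultures and cancers (0.416% higher, 0.473% lower), 0.677% between EpiC cultures and cancers (0.253% higher, 0.424% lower), and 0.00815% between the media. Summed over all genes, FPKM was 1615930 in CRC cancer culture 2 and 607519 to 710511 in the other libraries of this table. The genes described here made up 0.101% of the sum in CRC cancer culture 2, against 0.301% to 0.416% in the other cancer cultures. The part of this scale in the comparisons was not tested. Both culture comparisons share the same 2 primary cancers. In those cancers, macrophage markers summed to 1527 and 1785 FPKM, against 101 and 233 FPKM in CRC cultures and 69.7 and 146 FPKM in EpiC cultures, and 8 of the 11 markers were under 1 FPKM in all cultures of each medium. The part of such cells was not tested.

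EpiC cultures of cancers stood above the cancers for 21 of 21 mitotic and 18 of 18 replication genes, with median log2 differences of 1.48 and 1.06, against 0.08 over all genes. The groups did not overlap for 19 mitotic and 14 replication genes, where 22.9% of all genes were higher without overlap. An unadjusted p under 0.05 was reached by 10 mitotic and 2 replication genes, all higher in culture, where 2.62% of all genes were higher and 4.18% lower at that level. Ccnb1 had 105 and 97.2 FPKM in EpiC cultures of cancers 1 and 2, against 13.4 and 26.1 FPKM in the cancers (log2 difference 2.37 ± 0.57, limma adjusted p = 0.194). Ccna2, the cyclin of S phase and early mitosis, had 141 and 82.2 FPKM in EpiC cultures and 29.0 and 34.4 FPKM in the cancers (1.74 ± 0.55, limma adjusted p = 0.411). Rrm1 averaged 67.1 ± 24.9 FPKM in EpiC cultures and 22.9 ± 1.76 FPKM in cancers (1.46 ± 0.51, limma adjusted p = 0.507), and Gins1 26.3 ± 5.55 FPKM in EpiC cultures and 9.73 ± 4.35 FPKM in cancers (1.39 ± 0.54, limma adjusted p = 0.634). Mitotic genes averaged 2.22 above the cancer on the log2 scale for cancer 1 and 0.68 for cancer 2, and replication genes 1.71 and 0.40.

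CRC cultures of cancers stood above the cancers for 19 of 21 mitotic and 17 of 18 replication genes, with medians of 1.03 and 0.76, against -0.06 over all genes. The groups did not overlap for 12 mitotic and 11 replication genes, all higher in culture, against 16.7% of all genes. An unadjusted p under 0.05 was reached by 2 mitotic and 3 replication genes, all higher, where 3.06% of all genes were higher and 3.96% lower. Birc5 had 154 and 317 FPKM in CRC cultures of cancers 1 and 2 and 56.6 and 63.9 FPKM in the cancers (1.86 ± 0.55, limma adjusted p = 0.351). Ccnb1 had 92.3 and 47.4 FPKM in CRC cultures (1.76 ± 0.57, limma adjusted p = 0.435). Among replication genes, Rrm1 averaged 57.9 ± 10.6 FPKM in CRC cultures (1.29 ± 0.51, limma adjusted p = 0.633) and Tyms 19.3 ± 1.54 FPKM, against 6.93 ± 0.953 FPKM in cancers (1.36 ± 0.55, limma adjusted p = 0.656). The 2 cancers did not show the same pattern: the mitotic genes averaged 1.91 above the cancer in culture 1 but -0.19 in culture 2, and the replication genes 1.42 and 0.11. The mean of -0.19 includes Bub1, listed at 0 in culture 2, and the median there was 0.15, with 13 of 21 mitotic genes higher in culture. Leaving out 1 library gave mitotic medians of 0.41 (without CRC cancer culture 1) to 1.55 (without CRC cancer culture 2).

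Between the media, CRC cultures of cancers had lower values than EpiC cultures for 18 of 21 mitotic and 15 of 18 replication genes, with medians of -0.56 and -0.25, against -0.08 over all genes, and 0 genes reached an unadjusted p under 0.05, where 0.986% of all genes were higher and 0.644% lower at that level. In both cancers 18 mitotic genes (85.7%) were lower in the CRC culture, against 31.3% of all genes. Of the replication genes, 7 (38.9%) were lower and 3 (16.7%) higher in both cancers, near the 31.3% and 23.0% of all genes. The smallest p-values among mitotic genes were those of Kif20a, a cytokinesis motor, with 50.1 and 3.998 FPKM in CRC cultures of cancers 1 and 2, against 69.1 and 35.7 FPKM in EpiC cultures, and of Bub1, with 28.3 FPKM in CRC culture 1 and a listed 0 in CRC culture 2, against 42.3 and 15.4 FPKM in EpiC cultures. Their adjusted p was 1 (limma). Of the replication genes, Mcm2 had 39.0 and 17.99 FPKM in CRC cultures and 71.1 and 35.4 FPKM in EpiC cultures, and Mcm7 averaged 70.9 ± 10.8 FPKM in CRC cultures and 100 ± 13.4 FPKM in EpiC cultures. This order of the media is the opposite of that in the cultures of the first table for the mitotic genes, and the 2 tables were not tested against each other. Without CRC cancer culture 2 the mitotic median was 0.08, and without EpiC cancer culture 1 the replication median was 0.18.

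The other genes given in every library differed more between culture and cancer for cancer 1 than for cancer 2. Mki67 had 38.7 and 20.4 FPKM in CRC cultures of cancers 1 and 2, 45.6 and 24.5 FPKM in EpiC cultures, and 16.2 and 14.1 FPKM in the cancers. Top2a had 143 and 37.9 FPKM in CRC cultures, 169 and 140 FPKM in EpiC cultures, and 24.9 and 64.0 FPKM in the cancers. Cdk1 had 67.3 and 76.7 FPKM in CRC cultures, 69.8 and 69.6 FPKM in EpiC cultures, and 14.8 and 51.3 FPKM in the cancers. For Mki67 and Cdk1 every culture exceeded both cancers, and for Top2a CRC culture 2 lay between them. Rrm2 had 82.2 and 69.5 FPKM in CRC cultures, 109 and 54.5 FPKM in EpiC cultures, and 13.8 and 43.5 FPKM in the cancers. Mcm5 had 54.4 and 33.5 FPKM in CRC cultures, 78.1 and 33.4 FPKM in EpiC cultures, and 14.3 and 26.8 FPKM in the cancers. Pcna had 449 and 197 FPKM in CRC cultures, 435 and 287 FPKM in EpiC cultures, and 204 and 292 FPKM in the cancers, so that it was higher in culture only for cancer 1. Primary cancer 2 was above primary cancer 1 for most of these genes. Mcm2 stood at 16.8 and 22.4 FPKM in the cancers, below every culture except CRC culture 2.

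The difference between the 2 CRC cultures of cancers went with transcript length. Across 11059 genes, Spearman's rho between length and the deviation of CRC cancer culture 2 from CRC cancer culture 1 was -0.55, and across the 39 genes here -0.55. With the signs turned, the same values describe culture 1 against culture 2. The 11 genes with transcripts of 4000 bases or longer stood -1.60 from culture 1 at the median in culture 2, and the 7 genes under 2000 bases -0.32. In EpiC allograft 5A, with rho of -0.66 over the 40 genes, the 12 long genes had a median deviation of -0.80 and the 7 short genes 0.82. The difference between CRC and EpiC cultures of cancers correlated with length at -0.43 over all genes and -0.37 over these genes, and that between CRC and EpiC cultures of the first table at 0.05 and 0.16.

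**Figure D4:**
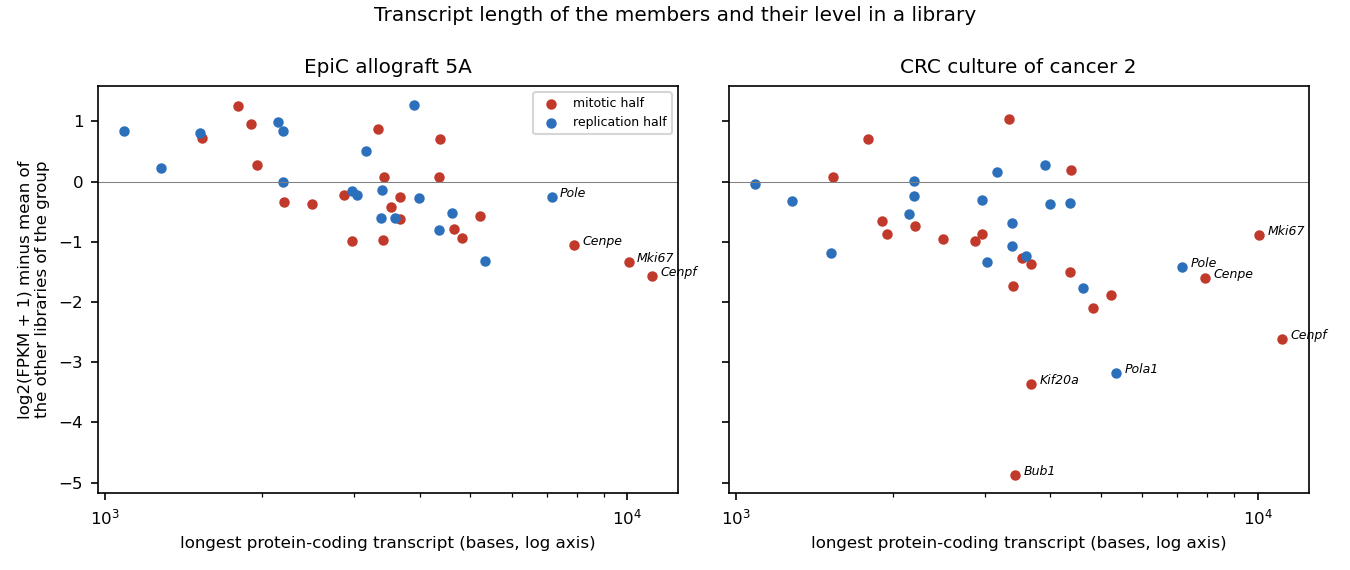
Transcript length of each gene (longest protein-coding transcript in GENCODE M21, log axis) against its log2(FPKM + 1) minus the mean of the other libraries of its group, in EpiC allograft 5A (left) and the CRC culture of cancer 2 (right). Long genes such as Cenpf, Mki67, Cenpe and Pole lay below 0 in both, and Bub1 in the right panel is listed at 0 FPKM. The right panel sets culture 2 against culture 1 alone, so that culture 1 would show its mirror image.

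Within the first table the mitotic genes varied together more than the replication genes. The median of 231 pairwise Pearson correlations among mitotic genes was 0.41 over 16 libraries, against 0.08 among the 153 replication pairs, 0.05 between mitotic and replication genes and about 0 among all genes. In the 6 cultures the medians were 0.86, 0.45 and 0.26, and in the 10 allografts 0.18, 0.13 and 0.10. These points share libraries, media and genotypes, and the correlations are a description. Kif20a and Kif11 followed the mean of the other mitotic genes most closely (r = 0.85 and 0.75), and Foxm1 (0.14) and Birc5 (0.27) least. Of the replication genes, Mcm7 (0.77) and Mcm3 (0.60) were most like the rest, and Rrm1 (-0.01) and Pola1, a subunit of the polymerase that starts each strand (0.03), least. Foxm1 and Birc5 were the mitotic genes that rose in CRC allografts, and Rrm1 was among the genes that differed between the cultures. Those differences come from the same libraries as r, so the low r and the differences are not separate observations.

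**Figure D5:**
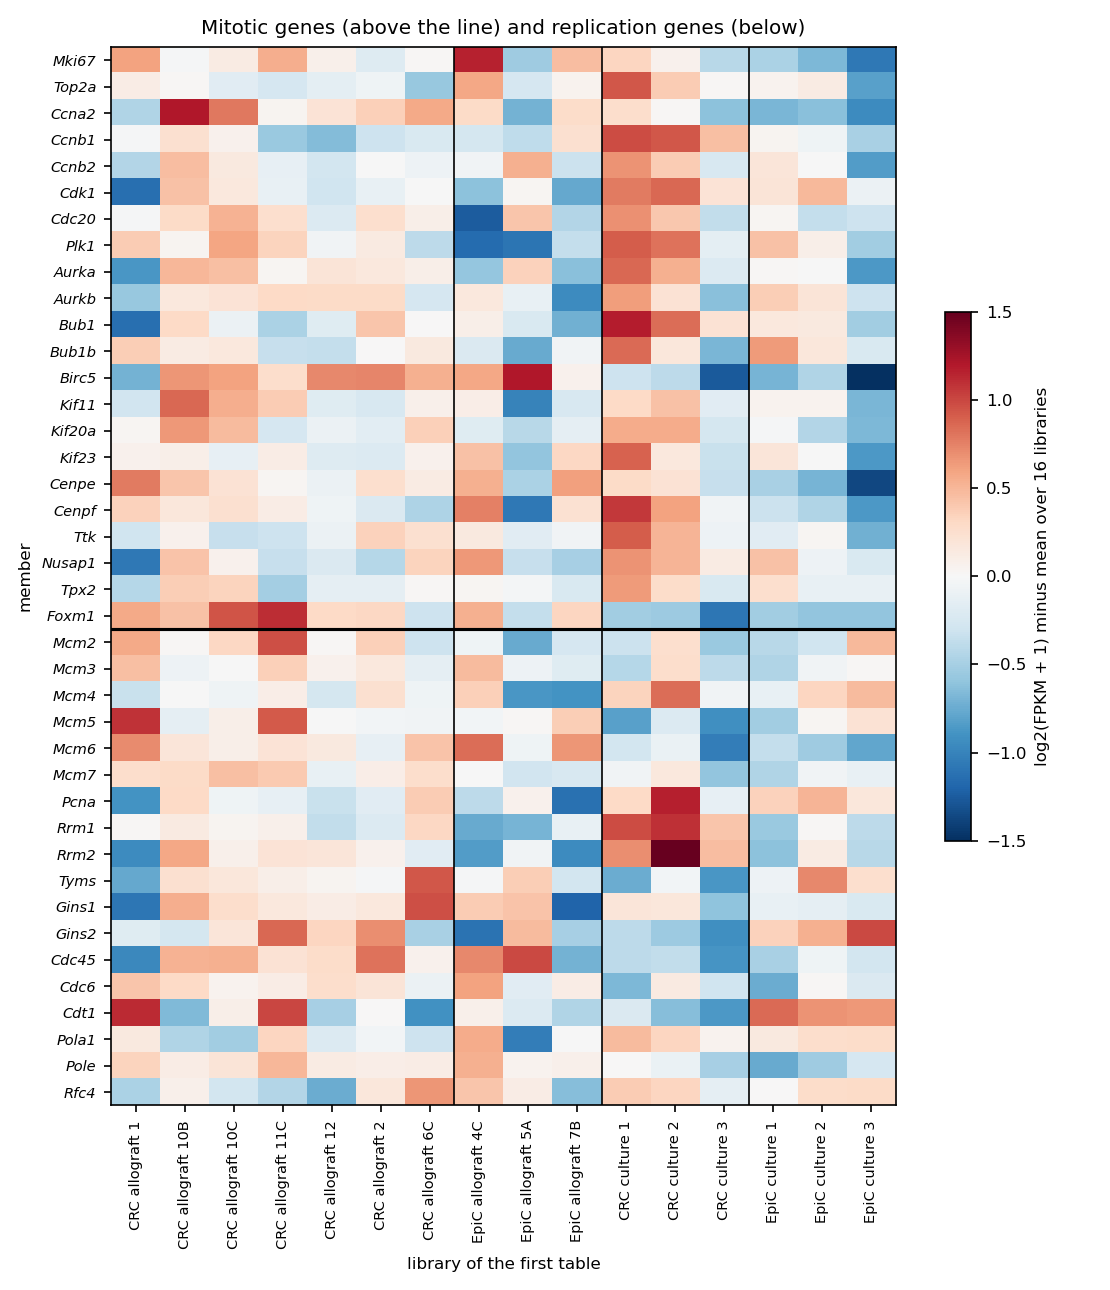
Log2(FPKM + 1) of each gene minus its mean over the 16 libraries of the first table (colour), with mitotic genes above the line, replication genes below it and libraries in columns by group. CRC cultures 1 and 2 are red for most mitotic genes and EpiC culture 3 is blue, while Foxm1 and Birc5 are red in most CRC allografts and blue in the cultures.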

How the data were processed

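Poly(A) RNA was sequenced as paired-end TruSeq libraries on a HiSeq 2000, per the labels' protocols. The values are FPKM as deposited by the authors in 2 tables, of 16 and 6 libraries. FastQC, Trim Galore, TopHat, Cufflinks and build mm9 are named in the submitters' processing notes. No versions are stated there, and how libraries were scaled to each other, or which gene annotation was used, was not found in the labels. In the second table, 407 entries that shared a symbol were summed, which took 23735 entries to 23490 symbols.

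Tests were made within a table, since the tables were normalised separately. They used limma 3.58.1 in R 4.3.3 with a variance trend, on log2(FPKM + 1), which understates changes of low genes. Each fit kept the genes that averaged 1 FPKM or more over its own libraries, and p-values were adjusted by Benjamini-Hochberg over all of them, with calls at an adjusted p under 0.05. Genotype was a term except in the Brca1 and cancer comparisons. The 3 comparisons that include allograft against culture came from 1 fit of 16 libraries. Cultures were fitted alone, with 2 residual degrees of freedom. The scripts were tested on simulated data. FPKM gives no read counts, so depth is unknown and no counting intervals are given. Summed FPKM ran from 466441 to 825216 in the first table. In the second it was 1615930 in CRC cancer culture 2 and 607519 to 710511 in the other libraries.

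The 40 genes, the lists and the rules were chosen with earlier results of these data known. Named were 8 genes in every library, in each comparison up to 5 called mitotic and 5 called replication genes with the largest differences (or the 2 with the smallest p where fewer than 2 were called), and up to 2 called genes of each list. In the second table the replicate number marks the same cancer, per the titles. Deviations of same-numbered libraries from their group means correlated at 0.242 between CRC and EpiC cultures, -0.0555 between CRC cultures and cancers and -0.113 between EpiC cultures and cancers. The most similar pair of libraries (CRC cultures 2 and 3) had r = 0.991, and none were treated as 1 library deposited again. Transcript lengths came from GENCODE M21 and promoters from RefSeq, build GRCm38.p6, both matched by symbol. Alternatives were another pseudocount (0.1), no filter or a filter at 5 FPKM, median-ratio rescaling, no genotype term, no variance trend, Brca1het alone, 10B and 10C as 1 sample, a replicate block and leaving out each library.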

Additional observations from a re-analysis of the deposited data

Results flagged for a closer look

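In the 7 CRC allografts, the level of each of the 40 genes and the mean levels of the mitotic and of the replication genes were examined for a library that stood apart, 42 values in all, and 4 were found, all in CRC allograft 1 (Brca1hom). A test of this kind picks about 1 in 20 values by chance. Aurka, a centrosome kinase, had 14.3 FPKM in CRC allograft 1 and 27.5 to 38.3 FPKM in the other 6. Birc5 had 65.8 FPKM there and 130 to 180 FPKM in the others. Gins1, a helicase subunit, had 3.58 FPKM there and 9.48 to 17.96 FPKM in the others, and Cdc45, which joins the helicase at the fork, had 7.45 FPKM there and 16.3 to 28.0 FPKM in the others. The transcript length of all genes correlated with the deviation of this library from its group at a Spearman's rho of 0.31, and the part of length in these 4 values was not tested.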

How the results depend on the processing

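Between CRC and EpiC cultures, 6 mitotic and 5 replication genes passed as reported, against 1 and 3 with no filter and 2 mitotic genes without the genotype term, and 0 to 2 mitotic and 0 to 3 replication genes on leaving out 1 library. Between CRC allografts and cultures, leaving out 1 library gave 2 to 5 mitotic and 2 to 6 replication genes. Between EpiC allografts and cultures, 1 mitotic and 2 replication genes passed as reported. There, no filter gave 0 mitotic genes, median-ratio rescaling 2 mitotic and 1 replication gene, removal of the length trend 3 mitotic genes, no genotype term 3 mitotic genes, and 10B and 10C as 1 sample 0 mitotic and 1 replication gene, while leaving out 1 library gave 0 to 3 and 0 to 5. For the interaction, median-ratio rescaling and no genotype term each gave 1 replication gene, and leaving out 1 library gave 0 to 2 mitotic and 0 to 1 replication genes. The cause of these changes was not tested.

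Without CRC cancer culture 2, the log2 differences between CRC and EpiC cultures of cancers were 0.011 for Kif20a and 0.13 for Bub1, opposite in sign to those of all libraries (without CRC cancer culture 1, where Bub1 is then 0 in the only CRC library, they were -3.34 and -4.74), and the mitotic median ran from -1.08 to 0.08 over the 6 libraries left out. In the paired analysis, with the cancer number as a replicate block, 0 of the 39 genes passed in any of the 3 cancer comparisons, as without it. With crossed numbers as the block, 0 passed as well, and over all genes 73, 69 and 0 were called, against 58, 29 and 0 with the block and 109, 83 and 1 with none. Crossing the numbers and removing the length trend were chosen after seeing the data.

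Over all genes, 2741 were called between the cultures, against 1658 with no filter. For CRC cultures of cancers 109 were called, against 284 with no filter and 59 with the filter at 5 FPKM, and for EpiC cultures of cancers 83, against 284 and 43. Between allografts 1 was called, against 17 in Brca1het alone. Of 800 values for named genes under alternatives, 677 kept direction and call, 112 lost the call, 9 gained it and 2 turned sign. Those that kept both include values of genes not called as reported, which had no call to lose. Between the cultures, Mki67, Bub1, Cenpe, Gins2 and Tyms lost the call in all 6 fits that left out a library. Depth cannot be read from FPKM, so its limit on these calls is unknown.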
